A study of Mus musculus with 9 samples.

Results

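The muscleblind family of the mouse has 3 genes, Mbnl1, Mbnl2 and Mbnl3, and their messages and their own alternatively spliced segments were followed in 9 RNA-seq libraries of N2A cells, a mouse neuroblastoma line. Members were taken by gene symbol, which gave 3 of the 21553 genes listed with counts. They hold 20 of the 54141 cassette exons measured in both experiments, with 10 in Mbnl1, 7 in Mbnl2 and 3 in Mbnl3. The same genes hold 23 of 158681 introns and 12 of 70185 alternative splice sites.

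The libraries came from 2 separate experiments. The first had 1 library each for knockdown of Mbnl1 together with Mbnl2, for knockdown of Nacc1, which encodes a transcriptional regulator, and for a non-targeting control. The second had 2 libraries each for knockdown of Srrm4, an activator of neural microexons, for knockdown of the zinc finger gene Zfp871, and for a control of the same kind. All cells were N2A, none was left untransfected, and each received a pool of small interfering RNAs and was collected after 48 hours for polyA RNA. The Mbnl1 and Mbnl2 pools were given together, so an effect of one gene alone cannot be told apart from that of the other. The labels do not say whether the replicates of a group were separate cultures, so p-values measure only the spread between these libraries, which may be technical.

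Muscleblind proteins are zinc finger RNA-binding proteins that control alternative splicing, and they are known best for being held on expanded repeats in myotonic dystrophy. They act on exons of their own messages as well. The 54-nt exon of Mbnl1 and Mbnl2 carries part of a nuclear localisation signal, is skipped when muscleblind protein binds near it, and so takes part in a feedback on the family itself. The 36-nt exon further downstream has been tied to contacts between muscleblind molecules.

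The exons that carried the differences are shown here as pairs from the 2 genes, with capitals at the bases that differ between Mbnl1 and Mbnl2. They come from GENCODE vM21 transcripts on GRCm38 and were matched to the authors' mm9 exons by length and by the distance to a neighbouring exon, so positions are given in mm9. Both genes lie on the plus strand, and each sequence reads 5′ to 3′ along the message.
Mbnl1 54-nt exon, chr3:60418605-60418658: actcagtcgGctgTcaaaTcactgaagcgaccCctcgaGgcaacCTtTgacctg
Mbnl2 54-nt exon, chr14:120794934-120794987: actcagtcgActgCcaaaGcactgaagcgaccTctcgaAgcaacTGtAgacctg
Mbnl1 36-nt exon, chr3:60425345-60425380: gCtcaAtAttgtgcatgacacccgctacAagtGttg
Mbnl2 36-nt exon, chr14:120802558-120802593: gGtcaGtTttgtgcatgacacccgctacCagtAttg

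The 54-nt exons share 46 of their 54 bases (85.2%), and the 36-nt exons share 31 of 36 (86.1%). All 4 lengths divide by 3, so inclusion or skipping keeps the reading frame. The 54-nt exon lies in coding sequence in 4 of the 5 annotated Mbnl1 transcripts that hold it and in 3 of 3 for Mbnl2. The 36-nt exon does so in 6 of 6 Mbnl1 and 2 of 2 Mbnl2 transcripts. Mbnl3 has a 36-nt exon too, with 26 bases shared with Mbnl1 (72.2%) and 24 with Mbnl2 (66.7%).
The core motif bound by muscleblind proteins was searched on the message strand only, as TGCT or TGCC and as CGCT or CGCC. It occurred 0 times in the Mbnl1 54-nt exon and 1 time in each of the other 3. Among all coding internal exons of the same length, 43.3% of the 54-nt exons and 31.6% of the 36-nt exons held it at least 1 time, so a match in such an exon is common. Flanking introns were not searched.

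At the level of the message, Mbnl1 and Mbnl2 were both expressed in N2A cells and Mbnl3 was close to undetected. Levels between genes are given as CPM (read counts scaled to the size of the library) per kilobase, with the gene length implied by the authors' cRPKM in the first experiment. Mbnl1 had 8.11 CPM per kb in the Mbnl1 and Mbnl2 knockdown and 14.9 in the Nacc1 knockdown, against 22.3 in their control. In the second experiment, Mbnl1 had 21.5 and 29.2 in the Srrm4 knockdown and 18.2 and 21.5 in the Zfp871 knockdown, against 18.3 and 22 in the control. The first 2 libraries lay below all the others, and 1 Srrm4 knockdown library lay above them.
Mbnl2 had 3.99 CPM per kb in the Mbnl1 and Mbnl2 knockdown and 14.4 in the Nacc1 knockdown, against 14.4 in their control. With Srrm4 knocked down Mbnl2 had 12.5 and 9.59, and with Zfp871 knocked down 14.6 and 10.7, against 12.9 and 9.19 in the control of that experiment. Every library but the one that received Mbnl siRNAs lay between 9.19 and 14.6. Mbnl3 stayed at or below 0.124 CPM per kb, with a length that rests on few reads. Per kilobase, the order Mbnl1, Mbnl2, Mbnl3 held in all 9 libraries, although Mbnl1 and Mbnl2 were nearly level in the Nacc1 knockdown.

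**Figure D1:**
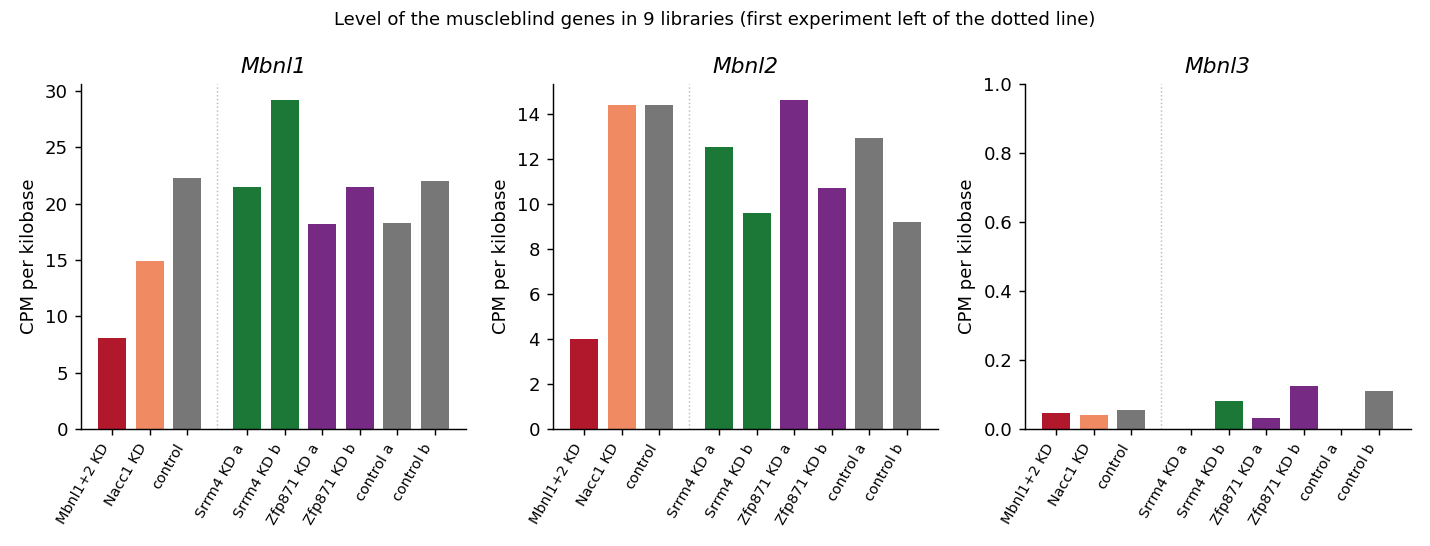
Level of Mbnl1, Mbnl2 and Mbnl3 in each of the 9 libraries, in CPM per kb (the Mbnl3 axis is expanded), with each knockdown left of its control and 1 bar per library. Mbnl1 (8.11) and Mbnl2 (3.99) are lowest in the library that received their siRNAs, Mbnl1 is at 14.9 in the Nacc1 knockdown, which did not meet the size rule, and Mbnl3 lies between 0 and 0.124 in all libraries.

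The knocked-down genes checked the labels. In CPM, with a 95% exact Poisson interval that covers counting error only, Mbnl1 was at 45.2 (43.4 to 47.1) in the Mbnl1 and Mbnl2 knockdown, against 124 (121 to 127) in the control. The first experiment has 1 library a group and so no replicate check or test. Differences there were read by size alone: a gene was counted as lower or higher if 1 of its libraries held 50 counts and the change was 2-fold or more. By this size rule Mbnl1 (log2 fold change -1.46) and Mbnl2 (-1.85) were lower in that knockdown, where 0.259% of 11604 genes were. Of those genes, 8 had a lower log2 fold change than Mbnl1 (0.0689%) and 4 a lower one than Mbnl2 (0.0345%).

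The Nacc1 knockdown library had 82.7 CPM of Mbnl1 (80.4 to 85), against 124 in the control, which is 0.67-fold or a log2 fold change of -0.59. The counting intervals were apart, but the size rule was not met, and 8.21% of 11580 genes had a lower fold change. Mbnl2 had 65.6 CPM in the Nacc1 knockdown, against 65.7 in the control (1.00-fold). By the size rule, 2.97% of genes were lower in this library. The authors' deposited table lists log2 fold changes of -1.38 for Mbnl1 and -1.74 for Mbnl2 in the joint knockdown, and of -0.59 and -0.01 in the Nacc1 knockdown. Nacc1 itself had 52 CPM in its own knockdown and 223 in the Mbnl1 and Mbnl2 knockdown, against 208 in the control that both share. In bulk RNA, fewer cells with a message and less message per cell cannot be told apart.

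In the second experiment, fitted with no replicate block, none of the 3 genes passed edgeR's quasi-likelihood test at a Benjamini-Hochberg adjusted p under 0.05. None had an unadjusted p under 0.05 either, and DESeq2 called 0 of them. Over all 12378 genes tested, 4.7% passed in the Srrm4 knockdown, 2.89% in the Zfp871 knockdown and 11.1% between the knockdowns. With the column letters a and b as a block, which the labels do not give, more genes were called in every comparison. Mbnl1 was then called in the Srrm4 knockdown (edgeR adjusted p = 0.00359) and between the knockdowns (edgeR adjusted p = 0.00187). The values below are from the fit without the block. Mbnl1 averaged 141 ± 30.6 CPM in the Srrm4 knockdown and 112 ± 14.8 in the control (SD, n = 2 each), a log2 difference of 0.33 (SE 0.18, edgeR adjusted p = 0.303). It averaged 111 ± 12.7 CPM in the Zfp871 knockdown, a log2 difference of -0.02 from the control (SE 0.18, edgeR adjusted p = 0.961). Between the knockdowns, Mbnl1 had 102 and 120 CPM after Zfp871 and 120 and 163 after Srrm4, with a log2 difference of -0.35 (SE 0.18, edgeR adjusted p = 0.242). The libraries of the 2 groups just failed to overlap, as they did for 59.4% of all genes in this comparison.
Mbnl2 averaged 50.2 ± 9.33 CPM in the Srrm4 knockdown and 57.6 ± 12.7 in the Zfp871 knockdown, against 50.2 ± 11.9 in the control (SD, n = 2 each). Its edgeR adjusted p was 0.999 in the Srrm4 and 0.674 in the Zfp871 comparison, with an SE of 0.23 on the log2 scale in both. The knockdowns themselves lowered their targets. Srrm4 had 28.3 and 26.1 CPM in its knockdown, against 66.8 and 96.7 in the control. It was below both control libraries in the Zfp871 knockdown as well, at 44.9 and 53.7 CPM. Zfp871 had 7.17 and 5.08 CPM in its knockdown and 22.8 and 23.7 in the Srrm4 knockdown, against 17.6 and 26.2 in the control.

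Mbnl3 lay near the limit of detection. It had 5 reads in the Mbnl1 and Mbnl2 knockdown and 5 in the Nacc1 knockdown, against 7 in their control. Mbnl3 had 0 and 10 reads in the Srrm4 knockdown and 3 and 13 in the Zfp871 knockdown, against 0 and 11 in the control of that experiment. A count of 0 allows up to 3 reads, which was 0.0663 CPM in Srrm4 knockdown a and 0.0648 CPM in control a. No rise of Mbnl3 was detectable at this depth where its relatives were knocked down.

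The balance of the family differed between libraries. The ratio of Mbnl1 to Mbnl2 in CPM per kb was 2.03 in the Mbnl1 and Mbnl2 knockdown and 1.03 in the Nacc1 knockdown, against 1.54 in their control. It was 1.72 and 3.05 in the Srrm4 knockdown and 1.25 and 2.01 in the Zfp871 knockdown, against 1.42 and 2.40 in the control of the second experiment. In all 3 groups the library lettered a had the lower ratio, with less Mbnl1 and more Mbnl2 than library b. The 3 genes together came to 12.2 CPM per kb in the Mbnl1 and Mbnl2 knockdown and 29.3 in the Nacc1 knockdown, against 36.8 in the control, and to 31.2 to 38.9 in the 6 libraries of the second experiment.

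Splicing was read as percent spliced in (PSI), the share of inclusion reads among inclusion and exclusion reads of a segment. Of the 20 cassette exons, 13 had at least 10 reads in every library of an experiment and a PSI between 2 and 98 in at least 1 library. Another 3, all in Mbnl1 (49, 63 and 171 nt long), stayed within 2 points of 0 or 100, and 4 had too few reads, the 114-nt exon of Mbnl1 and all 3 of Mbnl3. For exons of the first experiment, the size rule was 20 reads or more in each of the 3 libraries, a difference of at least 20 points and exact binomial (Clopper-Pearson) 95% intervals that did not overlap, which cover counting error only. Of the 16 muscleblind exons with 20 reads, 2 passed in the Mbnl1 and Mbnl2 knockdown, against 0.534% of 36175 exons, and 3 passed in the Nacc1 knockdown, against 0.498%. Among the exons with a PSI between 2 and 98 somewhere in the experiment these shares were 1.1% and 1.03%. All the muscleblind exons that passed were more included, while over all exons 0.21% passed as more included in the Mbnl1 and Mbnl2 knockdown and 0.127% in the Nacc1 knockdown. The median difference over the 16 was 0.144 points in the Mbnl1 and Mbnl2 knockdown and 1.15 in the Nacc1 knockdown, against 0 over all exons in both.

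The 54-nt exon of Mbnl1 had the largest difference from the control among the muscleblind cassette exons of the first experiment. Its PSI was 96.3 (90.7 to 99, 107 reads) in the Mbnl1 and Mbnl2 knockdown and 84.8 (79.4 to 89.3, 218 reads) in the Nacc1 knockdown, against 59 (53.6 to 64.1, 353 reads) in the control. That is 37.3 points higher in the Mbnl1 and Mbnl2 knockdown and 25.7 higher in the Nacc1 knockdown. In the other experiment the PSI was 66.3 and 67.4 in the Srrm4 knockdown and 71.7 and 63.4 in the Zfp871 knockdown, against 69.5 and 63.3 in the control. The 3 groups overlapped there, and all 6 values lay above the control of the first experiment and below both knockdowns of that experiment.

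The 54-nt exon of Mbnl2, its close copy, was higher in the same libraries. Its PSI was 80.5 (64.8 to 92, 37 reads) in the Mbnl1 and Mbnl2 knockdown and 79.1 (72.2 to 84.6, 180 reads) in the Nacc1 knockdown, against 51.6 (43.3 to 60, 147 reads) in the control. The differences were 28.9 and 27.5 points. Elsewhere the PSI was 52.4 and 47.4 in the Srrm4 knockdown and 44.6 and 36.7 in the Zfp871 knockdown, against 51.8 and 43.9 in the control. Those ranges overlapped with the control in both comparisons. How reads that match both copies were assigned is not stated in the labels or tables, so values of the 54-nt pair may share some reads.

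**Figure D2:**
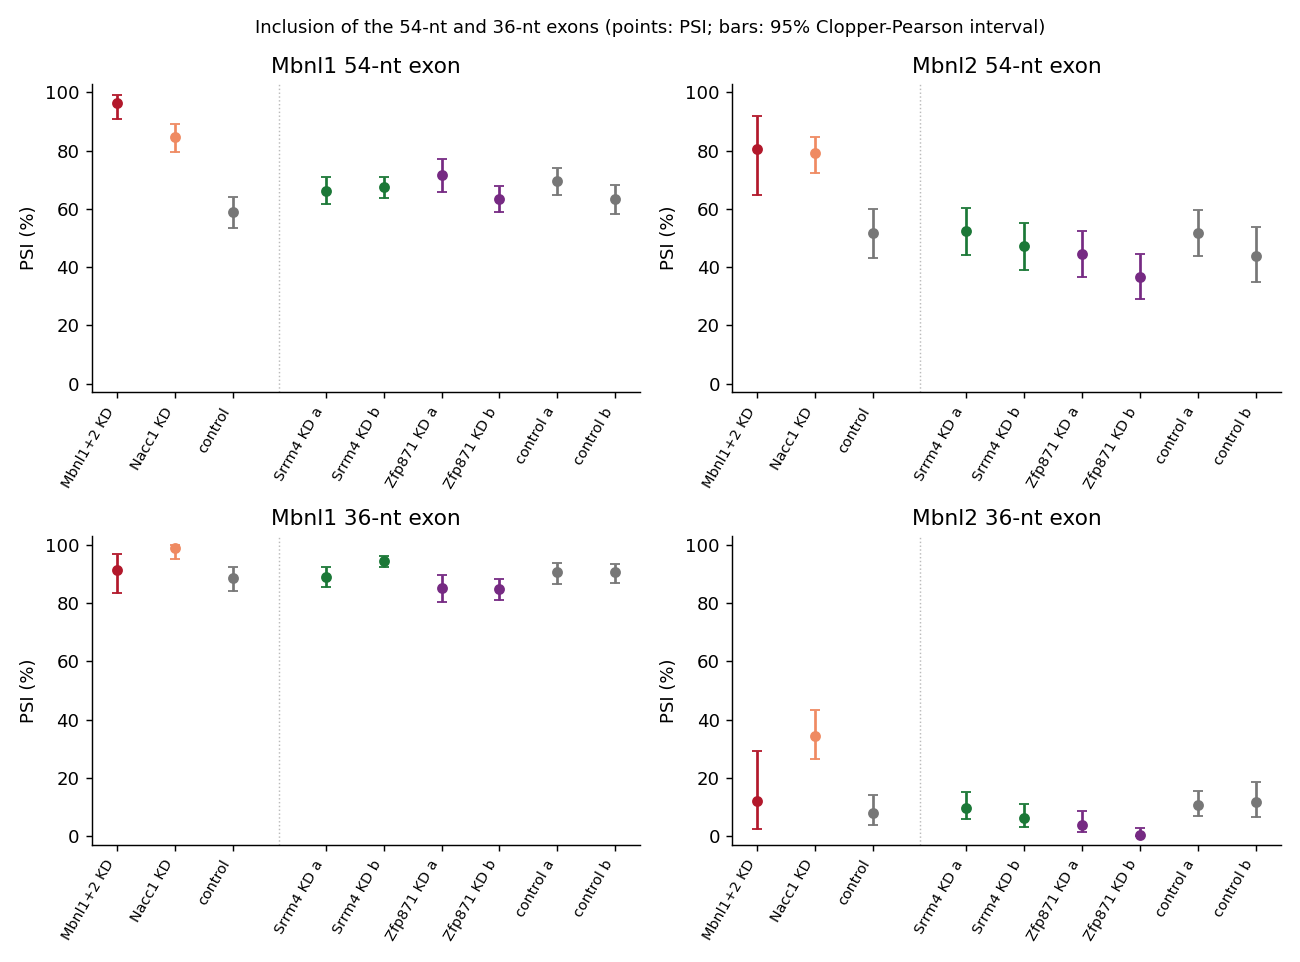
Percent spliced in of the 54-nt and 36-nt exons of Mbnl1 and Mbnl2 in each of the 9 libraries, with each knockdown left of its control, and bars for the 95% exact binomial interval of 1 library. The 54-nt exons stand highest in the Mbnl1 and Mbnl2 knockdown (96.3 and 80.5) and the Nacc1 knockdown (84.8 and 79.1), while the Mbnl2 36-nt exon stands out in the Nacc1 knockdown alone (34.5).

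The 36-nt exon stood at opposite ends of the scale in the 2 genes. In Mbnl2 it was mostly skipped, with a PSI of 12 (2.35 to 29.2, 27 reads) in the Mbnl1 and Mbnl2 knockdown and 34.5 (26.6 to 43.3, 133 reads) in the Nacc1 knockdown, against 8.07 (3.87 to 14.1, 126 reads) in the control. The Nacc1 knockdown stood 26.4 points above the control and passed the size rule. The Mbnl1 and Mbnl2 knockdown overlapped with the control. Set directly against each other, the Nacc1 knockdown was 22.5 points above the Mbnl1 and Mbnl2 knockdown, but their intervals overlapped, since the Mbnl1 and Mbnl2 knockdown had only 27 reads of the exon. No muscleblind exon passed the size rule in that direct comparison, where 0.37% of all exons did.
In Mbnl1 the 36-nt exon was mostly included, with a PSI of 91.5 (83.4 to 97, 75 reads) in the Mbnl1 and Mbnl2 knockdown and 98.9 (95 to 99.8, 143 reads) in the Nacc1 knockdown, against 88.6 (84.3 to 92.5, 251 reads) in the control. The Nacc1 knockdown was 10.2 points higher with intervals apart, short of the 20 points of the size rule. So this pair of exons with similar sequence was included in most Mbnl1 messages and skipped in most Mbnl2 messages in every library.

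In the second experiment the 36-nt exons had lower PSI values in the Zfp871 knockdown, which did not pass the test. The Mbnl2 exon had a PSI of 3.81 and 0.321 in the Zfp871 knockdown and 9.53 and 6.17 in the Srrm4 knockdown, against 10.6 and 11.7 in the control. The difference of -9.07 points between Zfp871 knockdown and control had an edgeR adjusted p of 0.888. The Mbnl1 exon had a PSI of 85.2 and 84.8 in the Zfp871 knockdown and 89.1 and 94.6 in the Srrm4 knockdown, against 90.7 and 90.5 in the control, and the difference of -5.58 points between Zfp871 knockdown and control had an edgeR adjusted p of 0.888. The libraries of the Zfp871 knockdown and the control were apart for each exon, as they were for 31.1% of all 20266 exons tested.

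Over the 10 muscleblind exons testable in the second experiment, none was called at an edgeR adjusted p under 0.05 and a difference of 10 points, in any comparison. Over all exons, 0.123% were called in the Srrm4 knockdown and 0% in the Zfp871 knockdown and between the knockdowns. None of the 10 had an unadjusted p under 0.05 in the Srrm4 knockdown, where 1157 of all exons did, and 1 had one in the Zfp871 knockdown, where 946 did. Between the knockdowns 1 had one as well, the 36-nt exon of Mbnl2, with a difference of -5.78 points (edgeR adjusted p = 0.853). Limma on logit PSI called none of the 10 either.

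**Figure D3:**
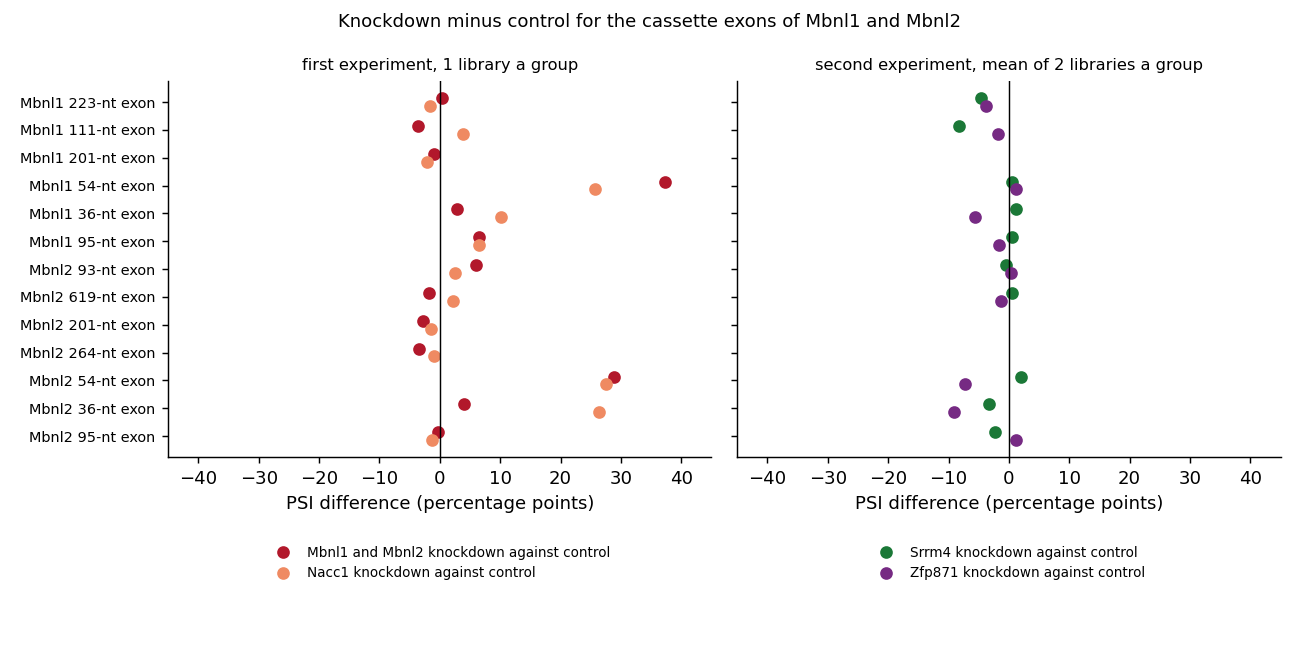
Difference in percent spliced in between each knockdown and its own control for the 13 exons named with values, in percentage points, 1 point per comparison and exon, means of 2 libraries a group in the second experiment. Past 20 points lie the 54-nt exons of both genes in the Mbnl1 and Mbnl2 knockdown (37.3 and 28.9) and in the Nacc1 knockdown (25.7 and 27.5) and the Mbnl2 36-nt exon in the Nacc1 knockdown (26.4), while the second experiment spans -9.07 to 2.03.

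The other muscleblind exons moved less. The 95-nt exon of Mbnl1, which follows the 36-nt exon and shifts the frame, had a PSI of 98.4 in the Mbnl1 and Mbnl2 knockdown and 98.3 in the Nacc1 knockdown, against 91.9 in the control, 6.57 and 6.47 points higher. Its values in the second experiment were 94.1 to 97.6. The 95-nt exon of Mbnl2 had a PSI of 86.8 in the Mbnl1 and Mbnl2 knockdown and 85.7 in the Nacc1 knockdown, against 87 in the control. Neither of the 95-nt exons passed the size rule in either knockdown.
The 111-nt exon of Mbnl1 was mostly skipped, with a PSI of 13.4 in the Mbnl1 and Mbnl2 knockdown and 20.7 in the Nacc1 knockdown, against 16.9 in the control. It had 15.6 and 18 in the Srrm4 knockdown and 25.5 and 20.8 in the Zfp871 knockdown, against 22.4 and 27.6 in the control they share. The Srrm4 knockdown stood 8.21 points below its control (edgeR adjusted p = 0.86), and the libraries were apart there for 5 of the 10 muscleblind exons, against 33% of all exons.
The 223-nt exon of Mbnl1 had a PSI of 93.5 in the Mbnl1 and Mbnl2 knockdown and 91.7 in the Nacc1 knockdown, against 93.3 in the control, and 88.1 to 95.4 in the second experiment. The 93-nt exon of Mbnl2 was nearly always skipped, with a PSI of 8.35 from 26 reads in the Mbnl1 and Mbnl2 knockdown and 4.93 in the Nacc1 knockdown, against 2.4 in the control. It had 0.669 to 2.1 in the second experiment. The 201-nt exon of each gene and the 264-nt and 619-nt exons of Mbnl2 were included at 95.7 or more in all 9 libraries.

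Where they can be read, the alternative splice sites and Mbnl3 gave no difference. The 105-nt alternative site of Mbnl1 had 55 to 450 reads and a PSI of 98.2 to 100, and the other 11 sites, 10 of them in Mbnl3, had too few reads. The 36-nt exon of Mbnl3 had 0 to 7 reads a library, all of them exclusion reads.

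PSI is a share, so the message level of each gene was also split by it into included and skipped forms. For Mbnl1, the form with the 54-nt exon came to 7.82 CPM per kb in the Mbnl1 and Mbnl2 knockdown and 12.6 in the Nacc1 knockdown, against 13.2 in the control. The form without it came to 0.298 CPM per kb in the Mbnl1 and Mbnl2 knockdown and 2.27 in the Nacc1 knockdown, against 9.15 in the control. The total of Mbnl1 in the Nacc1 knockdown, as given above, did not meet the size rule for genes.
For Mbnl2, the form with the 54-nt exon came to 3.21 CPM per kb in the Mbnl1 and Mbnl2 knockdown and 11.4 in the Nacc1 knockdown, against 7.45 in the control. The form without it came to 0.779 CPM per kb in the Mbnl1 and Mbnl2 knockdown and 3.02 in the Nacc1 knockdown, against 7 in the control. Here the total was 14.4 CPM per kb in both the Nacc1 knockdown and the control. The form of Mbnl2 with the 36-nt exon came to 0.481 CPM per kb in the Mbnl1 and Mbnl2 knockdown and 4.98 in the Nacc1 knockdown, against 1.17 in the control. These products of a level and a share carry the errors of both and were not tested. They divide all messages between an included and a skipped form, so messages that retain an intron beside the exon are counted in them too. Retention of the Mbnl2 intron that ends at the 54-nt exon was higher in the Mbnl1 and Mbnl2 knockdown, as given below.

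**Figure D4:**
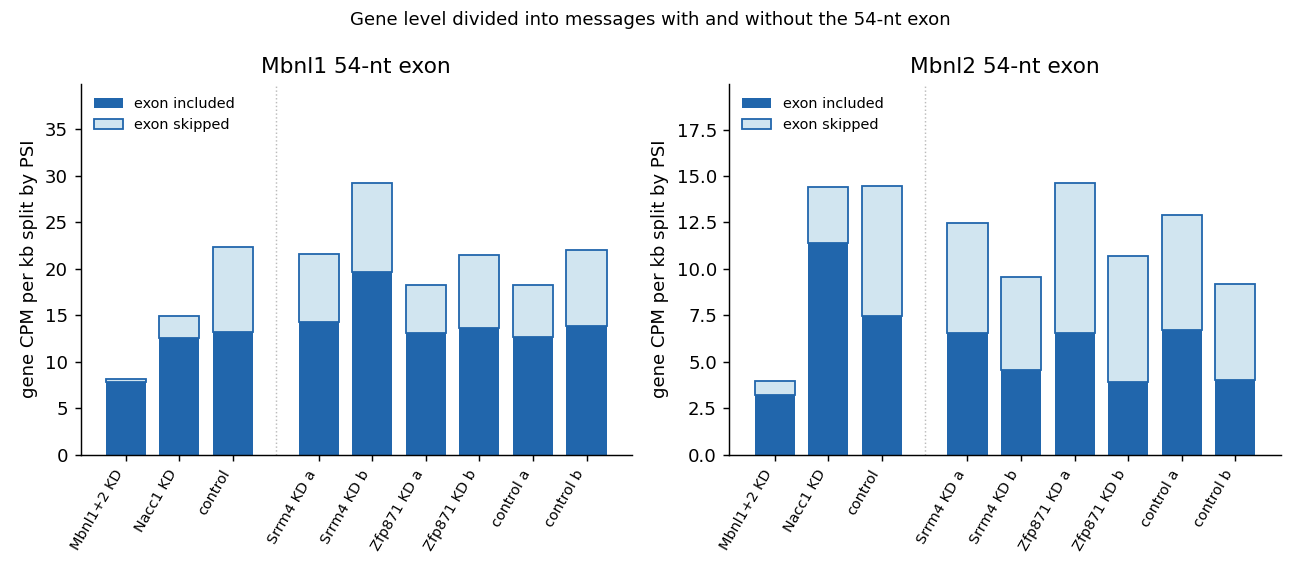
Level of the Mbnl1 and Mbnl2 messages with and without the 54-nt exon in each library as stacked bars, in CPM per kb, from the gene level times the PSI, with each knockdown left of its control. The skipped form of Mbnl1 is at 0.298 in the Mbnl1 and Mbnl2 knockdown and 2.27 in the Nacc1 knockdown, against 9.15 in the control, while its included form is at 7.82 in the Mbnl1 and Mbnl2 knockdown and 12.6 in the Nacc1 knockdown, against 13.2.

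In the authors' deposited table, the Mbnl1 54-nt exon is marked as differentially spliced in both knockdowns of the first experiment. The 54-nt and 36-nt exons of Mbnl2 and the 36-nt exon of Mbnl1 are marked in the Nacc1 knockdown, which gives 1 marked muscleblind exon in the Mbnl1 and Mbnl2 knockdown and 4 in the Nacc1 knockdown. That table lists no value for the Mbnl2 54-nt exon in the Mbnl1 and Mbnl2 knockdown, where 37 reads were left. It marks no muscleblind exon in the Srrm4 or Zfp871 knockdown.

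Among the introns, 1 of Mbnl1 and 1 of Mbnl2 were retained more in the Mbnl1 and Mbnl2 knockdown, in which the messages themselves were lowest, and the part of that lower level in the retention values was not tested. Of the 23 introns, 11 passed the reads and PSI rules used for exons, 6 stayed within 2 points of 0 or 100 and 6, all in Mbnl3, had too few reads. Of the 16 with at least 20 reads there, 2 passed the same size rule in the Mbnl1 and Mbnl2 knockdown, against 0.119% of 90996 introns, and 0 passed in the Nacc1 knockdown, against 0.123%. The median difference over the 16 was 2.12 points in the Mbnl1 and Mbnl2 knockdown and 0.318 in the Nacc1 knockdown, against 0 over all introns in both.
The 687-nt intron of Mbnl1 (chr3:60425381-60426067), between the 36-nt and 95-nt exons, was retained at 42.5 (31.5 to 54.1, 81 reads) in the Mbnl1 and Mbnl2 knockdown and 30.4 (22.8 to 38.9, 136 reads) in the Nacc1 knockdown, against 18.2 (12.4 to 25, 155 reads) in the control. The 6548-nt intron of Mbnl2 (chr14:120788386-120794933), which ends at the 54-nt exon, was retained at 48.6 (29.9 to 70.1, 26 reads) in the Mbnl1 and Mbnl2 knockdown and 10.2 in the Nacc1 knockdown, against 13.6 in the control. Both intervals of the Mbnl1 and Mbnl2 knockdown lay above those of the control. The retention values themselves were higher by 24.3 points in Mbnl1 and by 35 in Mbnl2.
The 8033-nt interval of Mbnl2 (chr14:120795827-120803859), which holds the 36-nt exon, was retained at 37 in the Mbnl1 and Mbnl2 knockdown and 15.8 in the Nacc1 knockdown, against 15 in the control, with intervals that just overlapped. Upstream in Mbnl1, the 2099-nt interval (chr3:60417443-60419541), which holds the 54-nt exon, was listed at 55.6 in the Mbnl1 and Mbnl2 knockdown and 25.6 in the Nacc1 knockdown, against 9.68 in the control. It rested on 7, 27 and 102 reads in these libraries. Its spliced reads are those that skip the 54-nt exon, so its retention value and the PSI of that exon are not independent. Other introns beside these exons differed less: in the Mbnl1 and Mbnl2 knockdown, the 685-nt intron that follows the Mbnl2 54-nt exon was 4.04 points above the control and the 5649-nt intron before the Mbnl1 36-nt exon 6.96 points above it. The authors' deposited table marks other introns than the size rule does, the 2099-nt and 687-nt introns of Mbnl1 in the Nacc1 knockdown and the 8033-nt interval of Mbnl2 in the Mbnl1 and Mbnl2 knockdown. It lists no value for the 2099-nt, 687-nt and 6548-nt introns in the Mbnl1 and Mbnl2 knockdown.

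All these introns had values of 8.24 or less in the second experiment. The 687-nt intron had 4.81 and 4.08 in the Srrm4 knockdown and 4.42 and 5.06 in the Zfp871 knockdown, against 5.01 and 8.24 in the control. Retention was higher in the first experiment across the transcriptome: 9.05% to 9.29% of 81971 introns were retained at 10 or more there, against 2.98% to 4.64% in the second. The gap between experiments, and whether RNA preparation had a part in it, cannot be told apart from the other differences between them, since neither labels nor tables say which of the 2 kits each library had. None of the 8 testable muscleblind introns was called with limma in the second experiment, where 0% of 28100 were called. An unadjusted p under 0.05 was reached by 1 of the 8 in the Srrm4 knockdown (the 685-nt intron of Mbnl2), where 1698 of all introns did, by none in the Zfp871 knockdown, where 1743 did, and by 1 between the knockdowns. The 685-nt intron was at 0 and 0 in the Srrm4 knockdown, against 3.23 and 4.49 in the control (limma adjusted p = 0.757).

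**Figure D5:**
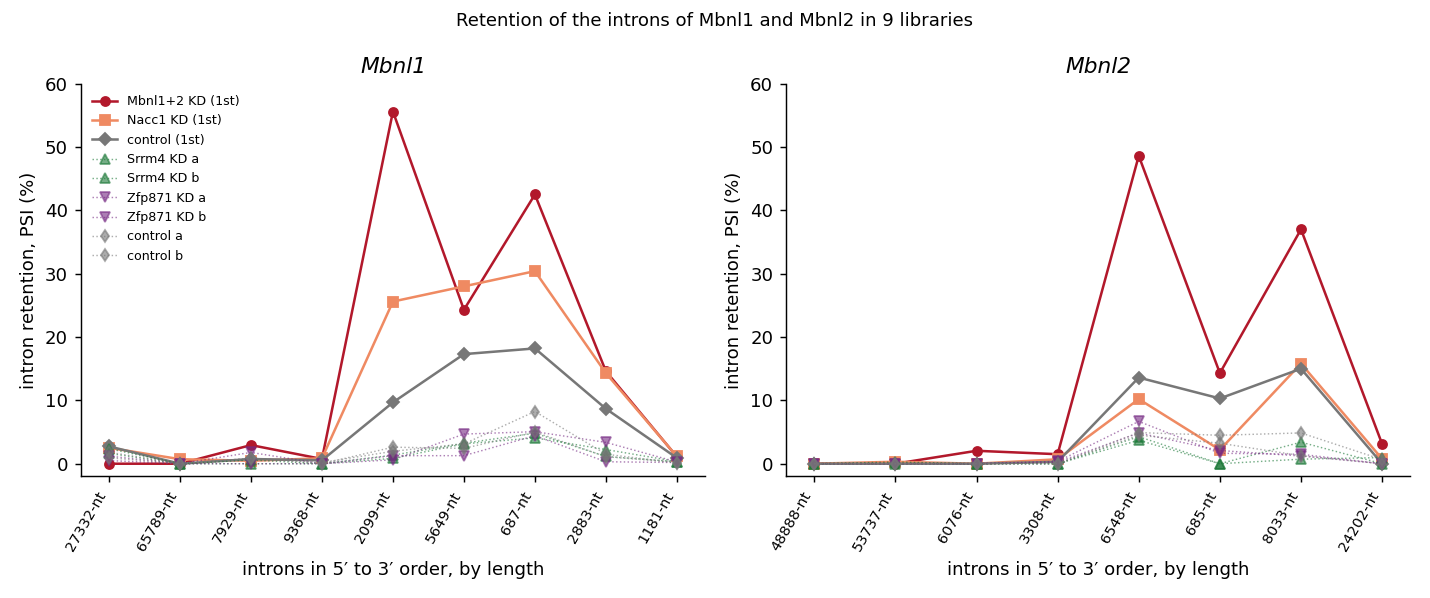
Retention of Mbnl1 and Mbnl2 introns in each library, in percent, along each gene from 5′ to 3′, with 1 line per library to guide the eye. The 687-nt intron of Mbnl1 (42.5) and the 6548-nt intron of Mbnl2 (48.6) are highest in the Mbnl1 and Mbnl2 knockdown, against 18.2 and 13.6 in its control, the second experiment stays at 8.24 or less, and the highest Mbnl1 point, 55.6 for the 2099-nt interval, rests on 7 reads.

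Other genes and exons were ranked by how alike their pattern over the 9 libraries was, after subtracting the control of the same experiment. The correlations are a description over 9 libraries, in which the 2 knockdown libraries of the first experiment carry most of the spread. Among 9831 genes with a mean of at least 5 CPM, those most like Mbnl1 were Aifm1 (Pearson r = 0.979), Atox1 (0.957), Rgs19 (0.955), Cdc42se1 (0.950) and Taf9 (0.949). Mbnl2 ranked 316 for Mbnl1 (r = 0.741). Those most like Mbnl2 were Cct4 (0.969), Mettl9 (0.966), Hccs (0.964), Rab22a (0.963) and Tpbg (0.959). The correlation takes no account of the size of a change. In the Mbnl1 and Mbnl2 knockdown, genes named for Mbnl1 had log2 fold changes of -0.69 (Cdc42se1) to -0.27 (Taf9), against -1.46 for Mbnl1. Genes named for Mbnl2 had -1.05 (Tpbg) to -0.14 (Cct4), against -1.85 for Mbnl2.
Among 1730 exons with at least 20 reads in all libraries and a PSI range of 20 points, the nearest to the Mbnl1 54-nt exon was a 156-nt exon of Map3k4, a kinase gene (r = 0.979), which was 52.5 points higher in the Mbnl1 and Mbnl2 knockdown and 32.4 in the Nacc1 knockdown. A 31-nt exon of Srgap3 (0.978), exons of 57 nt and 75 nt in the metalloprotease gene Adam15 (0.977 and 0.976) and a 90-nt exon of E130307A14Rik (0.970) came next. The Mbnl2 54-nt exon ranked 14 (r = 0.939). For the Mbnl2 54-nt exon itself the nearest was a 69-nt exon of Myt1, which encodes a neural zinc finger factor (0.981), and for the Mbnl2 36-nt exon it was a 36-nt exon of Itpr1, a calcium release channel (0.978). The Itpr1 exon was 4.64 points higher in the Mbnl1 and Mbnl2 knockdown and 37.1 higher in the Nacc1 knockdown.

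The family was set beside genes tied to it, a list chosen with earlier results of these data known. Of 19 measured partners and antagonists of muscleblind (CELF and RBFOX genes, the myotonic dystrophy loci Dmpk and Cnbp, RNA helicases and other RNA-binding proteins), 0 passed the size rule in the Mbnl1 and Mbnl2 knockdown and 0 in the Nacc1 knockdown. Either direction counted, 1.02% of all genes passed in the Mbnl1 and Mbnl2 knockdown and 3.38% in the Nacc1 knockdown. Just short of the rule in the Nacc1 knockdown were Celf5 (log2 fold change -0.99) and Celf4 (-0.87). Celf5 had 9.55 CPM there, against 18.9 in the control, and Celf4 had 24.2, against 44.1. In that comparison 12 of the 19 had a positive log2 fold change. By edgeR, 0 of the 19 were called in the Srrm4 knockdown, against 4.7% of all genes, and 1 in the Zfp871 knockdown, against 2.89%. That gene was Celf4, of the CELF proteins that oppose muscleblind at some exons, which averaged 19.9 CPM in the Zfp871 knockdown and 42.2 in the control (log2 difference -1.09, SE 0.18, edgeR adjusted p = 0.0407). In the Srrm4 knockdown it averaged 23.3 CPM, a log2 difference of -0.86 from the same control (SE 0.18, edgeR adjusted p = 0.0518). The Celf4 call was lost without Zfp871 knockdown a, Zfp871 knockdown b or control b, since 0 of all genes were called then. Of 47 cassette exons of these genes, 0 passed in the Mbnl1 and Mbnl2 knockdown and 1 in the Nacc1 knockdown, against 1.1% and 1.03% of all such exons. That was a 149-nt exon of Dmpk, with a PSI of 59.3 in the Mbnl1 and Mbnl2 knockdown and 45.3 in the Nacc1 knockdown, against 74.8 in the control.

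Exons of 75 genes reported elsewhere as hosts of muscleblind targets, in mouse or human, were counted in the same way. This list was also chosen with earlier results of these data known, so its counts are a description and not an independent check. Of their 269 exons with a PSI between 2 and 98 in at least 1 library, 7 were higher and 15 lower in the Mbnl1 and Mbnl2 knockdown. Among all such exons 0.434% were higher and 0.668% lower. In the Nacc1 knockdown 5 were higher and 18 lower, against 0.263% and 0.766%. The median over the 269 was -0.38 points in the Mbnl1 and Mbnl2 knockdown and -0.584 in the Nacc1 knockdown, against -0.47 and -0.155 over all exons with a PSI in that range. Both comparisons use the same control library.
A 130-nt exon of the integrin gene Itga6 had a PSI of 7.08 in the Mbnl1 and Mbnl2 knockdown and 16.6 in the Nacc1 knockdown, against 68.9 in the control. A 42-nt exon of Numa1, a spindle protein gene, had 8.95 in the Mbnl1 and Mbnl2 knockdown and 19.3 in the Nacc1 knockdown, against 70.7 in the control. These exons were skipped more where the 54-nt exons of Mbnl1 and Mbnl2 were included more.
Higher inclusion was seen for a 27-nt exon of Clasp1, a microtubule plus-end protein gene, with 77.7 in the Mbnl1 and Mbnl2 knockdown and 73.3 in the Nacc1 knockdown, against 39.2 in the control. A 126-nt exon of the lipid kinase gene Dgkh had 80 in the Mbnl1 and Mbnl2 knockdown and 71 in the Nacc1 knockdown, against 42.2 in the control. A 65-nt exon of the calcium channel gene Ryr1 was lower in the Nacc1 knockdown, with 95.9 in the Mbnl1 and Mbnl2 knockdown and 60 in the Nacc1 knockdown, against 92.7 in the control.
For the second experiment 295 exons of these host genes were tested. In the Srrm4 knockdown 0 were called higher and 3 lower, in Clasp2 (24 nt), Epb4.1l3 (36 nt) and Dlg1 (34 nt), against 0.123% of all exons called in either direction, and in the Zfp871 knockdown none was called, as for all exons. The Clasp2 exon had a PSI of 10.4 and 8.48 in the Srrm4 knockdown and 25 and 38 in the Zfp871 knockdown, against 75.5 and 80.5 in the control. The Srrm4 knockdown differed from the control by -68.6 points (edgeR adjusted p = 0.0278). Leaving out Srrm4 knockdown a or b or control a or b left 0 exons called, so all 3 calls were lost each time.

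Total counts were 50086176 to 63715449 a library in the first experiment and 44186088 to 61159670 in the second. Markers of neurons and neuroblastoma summed to 2976 to 3136 CPM in the first experiment, and in the second to 3291 and 3280 in the Srrm4 knockdown and 3237 and 3290 in the Zfp871 knockdown, against 4042 and 3708 in the control. Muscle markers, of interest since muscleblind acts there, summed to 0.939 to 6.1 CPM, with 5.03 and 6.1 in the Zfp871 knockdown, against 1.27 and 0.939 in its control, and 3 of the 6, Myod1, Myog and Ckm, stayed under 0.1 CPM in every library. Glial markers summed to 4.25 to 7.75, mesenchymal to 1.24 to 4.65, immune to 0.281 to 1.55 and epithelial to 0.655 to 4.17 CPM, with Aqp4, Col3a1, Aif1 and Ptprc under 0.1 in all libraries. The part of the lower neuronal sum in the Celf4 and exon values of both knockdowns of the second experiment, and that of the higher muscle sum in those of the Zfp871 knockdown, was not tested.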

How the data were processed

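PolyA RNA-seq of N2A cells was used as deposited, on build mm9. The submitters' processing notes list CASAVA 1.8 and edgeR with no role, and the series design text names vast-tools for splicing. No source used here gives the aligner, the counting program or the vast-tools version. Raw read counts per gene and, in the table of the first experiment, an RPKM by the authors (cRPKM) were deposited, per the file headers. The authors' log2 fold changes were deposited too, with an FDR by the authors (an adjusted p-value) where groups had replicates. The deposited splicing tables hold, per the file headers, the authors' filtered PSI in percent and a TRUE or FALSE mark whose rule is not stated. The deposited primary tables hold a text cell that ends in other values, the corrected inclusion and exclusion reads.

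PSI was recomputed from those reads. CPM divides counts by the library total times its TMM factor, computed within each experiment, so levels across experiments are descriptive. CPM per kb divides CPM by 1 length per gene, the summed CPM over the summed cRPKM of the first experiment. For the second experiment the quasi-likelihood test of edgeR 4.0.16 under R 4.3.3 took all 6 libraries together. Genes were fitted on counts, with filterByExpr and TMM. Exons were fitted on rounded inclusion and exclusion reads, with a coefficient per library, no TMM and a dispersion without trend. Exons needed at least 10 reads in every library and a PSI between 2 and 98 in at least 1. Introns and alternative sites were tested with limma 3.58.1 on logit PSI with an offset of 1 point. DESeq2 1.42.0 on the counts was an alternative for genes. The first experiment, with 1 library a group, had no test. Scripts were tested on simulated data with known changes. The members and lists were chosen with earlier results of these data known. Members named with values met the same limits of 10 reads and PSI in at least 1 experiment. From the lists, every call was counted and up to 8 of the largest changes were open to naming. Another 23 columns of per-library values were not used, and 1114 gene entries without counts were left out. The labels number the replicates of the second experiment and do not give the letters a and b, which were not mapped to those numbers. The letters were not used as a block in the main fits.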

Additional observations from a re-analysis of the deposited data

How the results depend on the processing

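In the first experiment, asking for 50 reads in each of the 3 libraries left 1 muscleblind exon past the size rule in the Mbnl1 and Mbnl2 knockdown and 1 in the Nacc1 knockdown. The Mbnl2 36-nt and 54-nt exons fell out through the 27 and 37 reads of the Mbnl1 and Mbnl2 knockdown. In the Nacc1 knockdown and the control both exons had more than 50 reads. The authors' PSI left 1 exon in the Mbnl1 and Mbnl2 knockdown, since their table lists none for the Mbnl2 54-nt exon there. A 10-point threshold gave 436 exons in the Mbnl1 and Mbnl2 knockdown and 462 in the Nacc1 knockdown, 4 of those in the Nacc1 knockdown being muscleblind exons, in place of 193 and 180. Of the 2 introns, 1 was left at 50 reads and 0 with the authors' PSI, which lists neither in that library (alternatives chosen after seeing the data).

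In the second experiment, genes called were 582 in the Srrm4 knockdown, 358 in the Zfp871 knockdown and 1374 between them. DESeq2 gave 1750, 1341 and 2426. Fits to the 4 libraries of a comparison gave 0, 178 and 1172. Leaving out 1 library gave 0 to 180, 0 to 29 and 0 to 530. The 25 exons called in the Srrm4 knockdown became 1 with the 4 libraries of the comparison, 11 with limma, 16 at 20 reads and 0 when any 1 of those 4 libraries was left out. Equal letters deviated together (r = 0.749, 0.662 and 0.637), a hint from the data and not the design. With the letter as a replicate block, 4565, 3854 and 5191 genes were called, and 37, 1 and 0 exons in place of 25, 0 and 0. Under that block Mbnl1 was called in the Srrm4 knockdown (log2 difference 0.32, edgeR adjusted p = 0.00359) and between Zfp871 and Srrm4 knockdown (-0.34, edgeR adjusted p = 0.00187), as 1 muscleblind gene in each, and Mbnl2 in the Srrm4 knockdown was at 0.01.

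Leaving out 1 library gave log2 differences of 0.10 to 0.54 for Mbnl1 in the Srrm4 knockdown and -0.56 to -0.12 between Zfp871 and Srrm4 knockdown, and it turned the direction of other small differences, none of them called. Those ranges were -0.23 to 0.27 for Mbnl2 in the Srrm4 knockdown, -0.04 to 0.48 in the Zfp871 knockdown and -0.04 to 0.42 between them, and -0.14 to 0.12 for Mbnl1 in the Zfp871 knockdown. In the Srrm4 knockdown, PSI differences spanned -2.67 to 3.58 points for the Mbnl1 54-nt exon, -1.48 to 3.99 for the 36-nt, -0.605 to 1.55 for the 95-nt, -0.84 to 1.8 for the Mbnl2 619-nt and -1.92 to 5.98 for the Mbnl2 54-nt exon. In the Zfp871 knockdown they spanned -4.43 to 0.745 for the Mbnl1 111-nt, -3 to 5.29 for the Mbnl1 54-nt, -2.63 to 0.0104 for the Mbnl2 619-nt and -0.474 to 2.88 for the Mbnl2 95-nt exon. The cause was not tested in any of these. Of 162 exon values under an alternative, 148 were counted as unchanged, and of 56 gene values, 46 were. In the second experiment this meant the same direction and side of the threshold. In the first it meant a move within the counting error. Depth limits all segments of Mbnl3, the 114-nt exon (0 to 6 reads) and the 2099-nt interval (7 reads in the Mbnl1 and Mbnl2 knockdown) of Mbnl1, and the Mbnl2 segments in that knockdown.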
